A study of Mus musculus with 2 samples.

Results

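The 9 genes described here encode proteins of endothelial cell junctions and of the endothelial surface: Cdh5, Pecam1, Cldn5, Esam, Tjp1, Robo4, Clec14a, Icam2 and Rasip1. They were chosen by symbol out of 18193 genes named on a mouse expression array, and all 11 probe sets annotated to exactly 1 of them were read. All 9 gave signal above the floor on both arrays, as did 10665 genes in all. The floor is the median signal of each array, 82.4 in the mutant and 91.3 in the control, and a gene above it on both arrays is called measured.

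The cells were sorted from mouse hearts at embryonic day 12.5, as live cells of the Tie2Cre lineage, with blood cells gated out by CD41, CD45 and Ter119. The mutant array holds cells of Tie2Cre;Tbx20 loxP/- hearts, with 1 floxed and 1 null allele of the T-box factor gene Tbx20. The control array holds cells of Tie2Cre;Tbx20 +/loxP hearts, with 1 wild-type and 1 floxed allele. Both genotypes carry Tie2Cre, which recombines loxP sites in endothelium, endocardium and cells derived from them, such as cushion mesenchyme, and in blood cells. The control is therefore no wild type, and the null allele is carried by the whole mutant embryo. Whether embryos were pooled is not given in the sources used here. With 1 array per genotype no test, standard error or p-value between genotypes can be given, and every difference below lies between these 2 preparations.

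Endothelial cells are held together by adherens junctions, built on the cadherin VE-cadherin, and by tight junctions, in which claudins seal the gap between cells and are tied to actin by scaffold proteins such as ZO-1. Immunoglobulin-family adhesion proteins sit in and around these junctions, and the small GTPase Rap1 acts through effectors at the junction to stabilise it. In the embryonic heart these genes are used by the endocardium and the coronary vessels, and the cells that leave the endocardium to form the cushions lose their endothelial junctions.

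Among the 9 genes, Robo4, Cldn5 and Clec14a read lower in the mutant array and the other 6 read higher. The log2 ratio of mutant over control was -0.72 for Robo4, -0.70 for Cldn5 and -0.53 for Clec14a, against 0.01 to 0.41 for the other 6. The median of the 9 ratios was 0.08, and the median over all measured genes was -0.01. Of all measured genes 51.0% read lower in the mutant. At 1.5-fold, 2 of the 9 genes were lower in the mutant, beside 6.61% of all measured genes, and 0 were higher, beside 4.37%. At 2-fold 0 of the 9 passed in either direction (2.11% of all measured genes), and past a log2 ratio of 0.32 either way 4 passed (33.5%), the lower 3 and Rasip1.

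**Figure D1:**
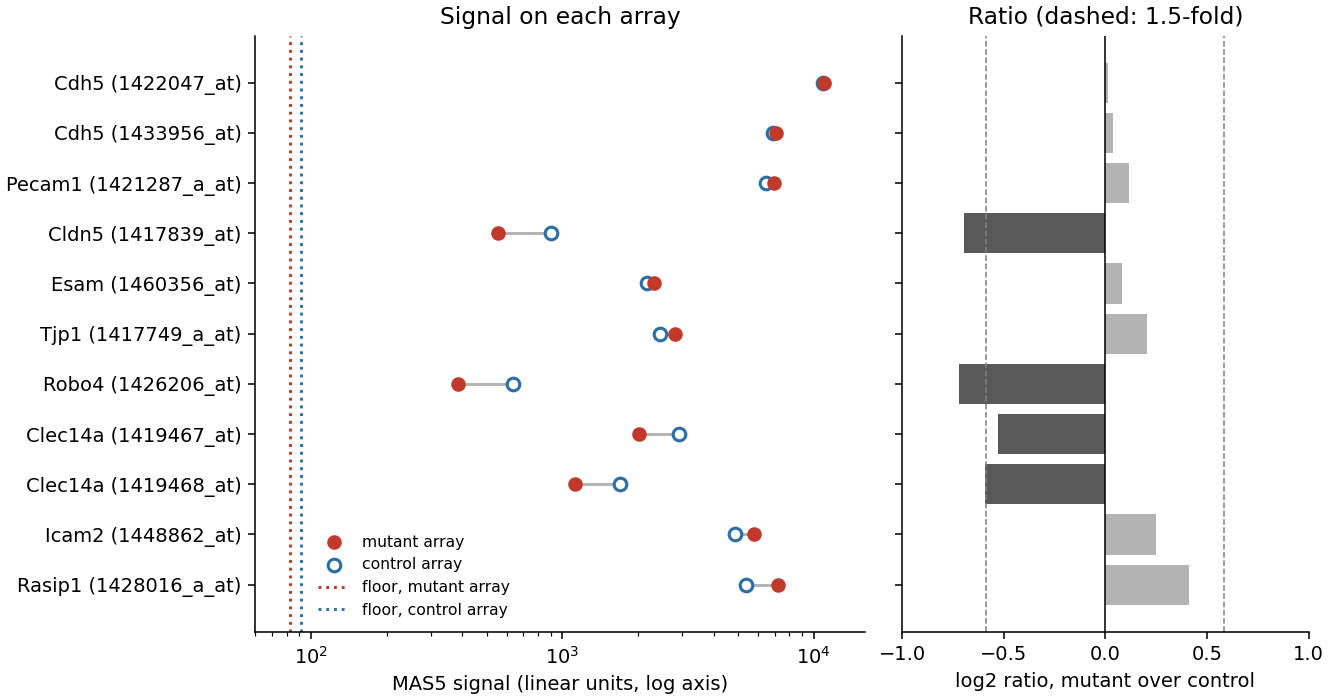
Each row is 1 probe set, with its MAS5 signal on the mutant array (filled) and the control array (open) on a log axis at left, each array's floor dotted, and its log2 ratio of mutant over control at right, 1.5-fold dashed. Cldn5, Robo4 and both Clec14a probe sets read lower in the mutant, and the other 7 probe sets read higher.

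Spread could be judged only from several probe sets that read 1 gene in the same RNA, and it covers the error of probes, not of animals. Their log2 ratios differed with an SD of 0.31 for genes with a mean signal of 1000 and over and of 0.39 for genes at 200 to 1000. Cldn5 and Robo4 belong to the dimmer of these classes and the other 7 genes to the brighter. Tbx20 itself read 6416, 5262 and 4245 on its 3 probe sets in the mutant, against 7638, 6128 and 7050 in the control. Which part of Tbx20 the floxed allele loses is not given in the labels, and if these probes lie outside it, the signals check nothing about the deletion. Among the array's RNA quality controls, the 3' probe set of Gapdh stood over its 5' probe set at a ratio of 1.64 in the mutant and 2.27 in the control, while for beta-actin that ratio was 0.998 in the mutant and 0.989 in the control. Of 33 probe sets for spiked-in control RNA 27 read lower in the mutant, with a mean log2 ratio of -0.41. The part of these controls in the ratios below was not tested.

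Cdh5 encodes VE-cadherin, the adhesion molecule of the endothelial adherens junction. Its probe set 1422047_at read 10975 in the mutant and 10886 in the control, a log2 ratio of 0.01. Its second probe set, 1433956_at, read 7067 in the mutant and 6881 in the control, a log2 ratio of 0.04. Both arrays thus gave nearly the same Cdh5 signal on both probe sets, 101% and 103% of control. Pecam1, an immunoglobulin-family adhesion molecule found where endothelial cells meet, read 6973 in the mutant and 6438 in the control, a log2 ratio of 0.12. That difference is 0.37 of the SD between probe sets of equally bright genes.

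Cldn5 encodes claudin-5, the main claudin of endothelial tight junctions. Its only probe set, 1417839_at, read 556 in the mutant and 900 in the control, so the mutant signal was 61.7% of control. The log2 ratio of -0.70 is 1.80 times the SD between probe sets in its brightness class, and 4.69% of the 4969 genes in that class had a ratio as low or lower. In that class 7.29% of genes were at least 1.5-fold lower in the mutant. The rank of Cldn5 among all probe sets, which no rescaling of an array alters, was percentile 75.9 in the mutant and 82.9 in the control.

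Tjp1 encodes ZO-1, the scaffold that claudins bind, and is also used in epithelia and other cell types. It read 2815 in the mutant and 2447 in the control, a log2 ratio of 0.20. Esam, an immunoglobulin-family adhesion molecule of endothelial tight junctions and platelets, read 2306 in the mutant and 2180 in the control, a log2 ratio of 0.08. The tight junction genes among the 9 were thus not displaced alike, with Cldn5 lower than Tjp1 by a difference of -0.90 between their log2 ratios. Tjp1 and Esam moved by less than 1 SD between probe sets.

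Icam2, an adhesion molecule of endothelium and platelets that binds leukocyte integrins, read 5809 in the mutant and 4879 in the control. Its log2 ratio of 0.25 is 0.81 of the SD between probe sets in its class. Robo4 encodes the roundabout receptor of endothelial cells, which binds Unc5b on neighbouring endothelium. Its probe set 1426206_at read 386 in the mutant and 636 in the control, 60.7% of control and the lowest ratio of the 9. This signal was 4.68 times the floor in the mutant and 6.96 times in the control, and 4.07% of genes in its brightness class had a ratio as low or lower. Its rank on the array was percentile 70.7 in the mutant and 78.1 in the control.

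Clec14a, a C-type lectin of the endothelial surface that binds the matrix protein multimerin-2, is the one lower gene with a second probe set. Probe set 1419467_at read 2019 in the mutant and 2915 in the control, a log2 ratio of -0.53. Probe set 1419468_at read 1126 in the mutant and 1696 in the control, a log2 ratio of -0.59. The ratios of both lay within 0.06 of each other, at 1.70 and 1.89 times the SD between probe sets of their class. The brighter probe set, which stands for the gene, fell short of 1.5-fold and the dimmer one passed it. In that class 3.70% of 4347 genes had a ratio as low as the brighter probe set, and 2.94% were at least 1.5-fold lower.

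Rasip1, a Rap1 effector inside endothelial cells that is needed for vessels to form a lumen, had the highest ratio of the 9. Its probe set 1428016_a_at read 7182 in the mutant and 5392 in the control, 133% of control and a log2 ratio of 0.41. This is 1.32 times the SD between probe sets, and 5.75% of the genes in its class had a ratio as high or higher. Across the 9 ratios, Robo4 minus Rasip1 came to -1.13 on the log2 scale. In the order of ratios, neighbours differed by less than 1 SD between probe sets except at the step between Clec14a and Cdh5, where Clec14a minus Cdh5 was -0.54.

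**Figure D2:**
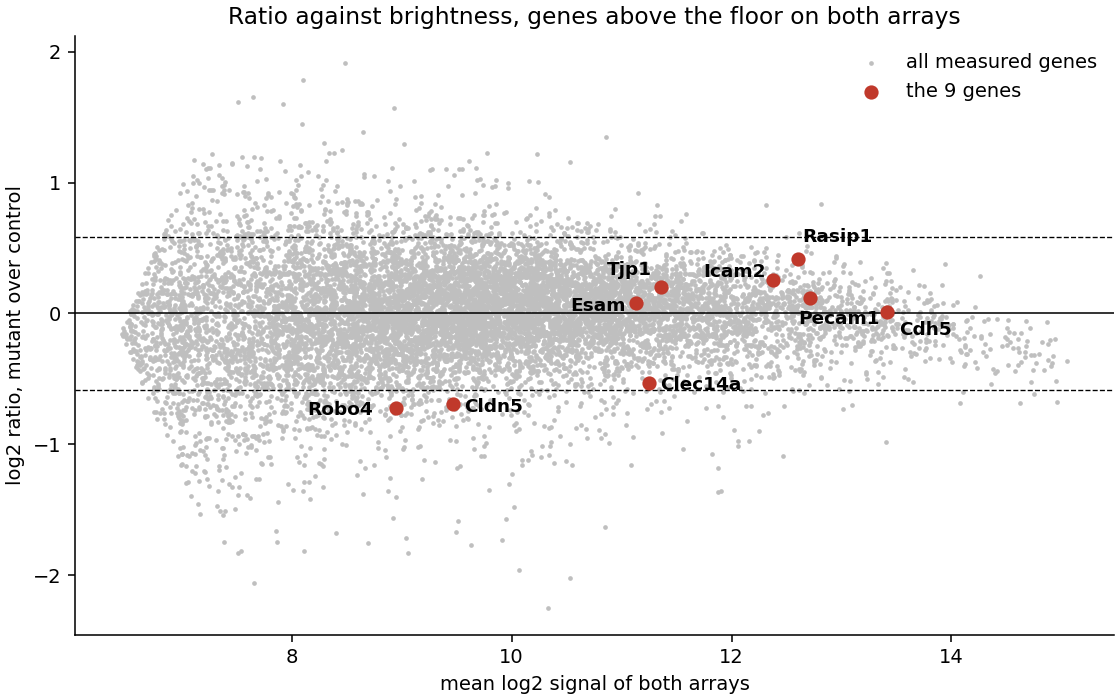
Each grey dot is 1 gene measured on both arrays, with the mean of its log2 signals on the horizontal axis and its log2 ratio of mutant over control on the vertical axis, 1.5-fold dashed. Robo4 at -0.72 and Cldn5 at -0.70 lie below the lower line, Clec14a at -0.53 just above it, and the other 6 genes (red) lie between 0.01 and 0.41.

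The stretches before the starts of the 3 lower genes and of Rasip1, the highest, are shown because these 4 genes carry the contrast among the 9. RefSeq promoter windows of build GRCm38.p6 matched 5 of the 9 genes (Cldn5, Tjp1, Robo4, Clec14a and Rasip1), and the 250 bases before the start in that table were searched. Capitals mark GGAA, the core bound by ETS factors, or TTCC, the same core on the other strand. The Robo4 window is chr9:37401722-37401971 (plus strand), that of Cldn5 chr16:18776597-18776846 (plus strand), that of Clec14a chr12:58269259-58269508 (minus strand) and that of Rasip1 chr7:45627287-45627536 (plus strand).
Robo4: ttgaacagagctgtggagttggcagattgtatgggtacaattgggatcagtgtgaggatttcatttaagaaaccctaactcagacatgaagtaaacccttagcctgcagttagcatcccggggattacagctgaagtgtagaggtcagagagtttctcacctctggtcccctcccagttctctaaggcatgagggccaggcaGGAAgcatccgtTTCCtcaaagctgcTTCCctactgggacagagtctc
Cldn5: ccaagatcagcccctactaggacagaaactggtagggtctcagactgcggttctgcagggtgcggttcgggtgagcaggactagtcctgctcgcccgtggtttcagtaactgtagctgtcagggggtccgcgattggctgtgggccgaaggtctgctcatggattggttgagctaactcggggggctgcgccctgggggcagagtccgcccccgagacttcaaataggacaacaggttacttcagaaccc
Clec14a: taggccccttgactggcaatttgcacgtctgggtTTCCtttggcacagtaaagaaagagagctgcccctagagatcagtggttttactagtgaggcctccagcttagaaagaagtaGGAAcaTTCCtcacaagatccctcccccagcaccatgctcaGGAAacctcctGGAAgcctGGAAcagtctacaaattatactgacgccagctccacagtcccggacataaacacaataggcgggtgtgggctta
Rasip1: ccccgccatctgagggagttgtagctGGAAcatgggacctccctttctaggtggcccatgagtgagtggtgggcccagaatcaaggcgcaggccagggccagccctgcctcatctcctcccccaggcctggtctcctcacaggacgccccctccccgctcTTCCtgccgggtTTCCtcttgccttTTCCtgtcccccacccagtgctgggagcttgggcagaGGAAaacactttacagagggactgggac

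The ETS core occurred 3 times before Robo4, at 48, 36 and 22 bases before the start, 0 times before Cldn5, 6 times before Clec14a and 5 times before Rasip1. Of all 32851 windows of the same length 93.4% held it, with a median of 3 matches. The other motifs were searched on both strands, and none of the motifs contains another. The core of the T-box site, AGGTGT, had 0 matches in these windows and in that of Tjp1, and 11.8% of all windows held it. CACCC, a core bound by Klf factors, occurred 2 times before Cldn5 and before Tjp1, 1 time before Clec14a and before Rasip1 and 0 times before Robo4, and 52.0% of all windows held it. AACAAT, a core bound by Sox factors, had 0 matches in the 5 windows and was held by 9.42% of all windows. These are letter matches in short windows, and none of them was shared by the lower 3 genes and missing from Rasip1.

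Other endothelial genes were read to see whether endothelial signal as a whole differed between the arrays. The 8 endothelial markers outside the 9 genes (Kdr, Flt1, Tek, Tie1, Erg, Emcn, Egfl7 and Eng) were all measured, and their log2 ratios ran from -0.05 to 0.16 with a median of 0.07. These are the ratios of the brightest probe set of each gene, and further probe sets reached down to -0.43 for Erg, -0.42 for Flt1, -0.36 for Eng and -0.29 for Egfl7. Their summed signal was 48533 in the mutant and 46084 in the control. Emcn, the sialomucin endomucin, read 11349 in the mutant and 10527 in the control, and Tek, the gene of the receptor Tie2 that gives the Cre line its name, read 7576 in the mutant and 7653 in the control. Robo4, Cldn5 and Clec14a lay below the 8 brightest-probe-set ratios, while Tjp1, Icam2 and Rasip1 lay above all 8. Another probe set of Egfl7 reached up to 0.23, above Tjp1 at 0.20. Set against the median of the 8, Robo4 stood at -0.79, Cldn5 at -0.77, Clec14a at -0.60 and Rasip1 at 0.34. In bulk RNA, fewer cells that express a gene and less RNA per cell cannot be told apart.

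The partners of the 9 genes at the adherens junction went both ways. Of 18 genes in that list 17 were measured, with 10 lower, 7 higher and a median at -0.03 on the log2 scale. Over all measured genes 51.0% read lower, 6.61% by at least 1.5-fold, and 4.37% were at least 1.5-fold higher. The catenins that bind VE-cadherin were at -0.15 for Ctnnb1 (beta-catenin), -0.15 for Ctnna1 (alpha-catenin) and -0.06 for Ctnnd1 (p120-catenin), although the probe sets of Ctnnb1 reached up to 0.51 and those of Ctnna1 and Ctnnd1 down to -0.39 and -0.35. Ptprb, the receptor phosphatase that associates with VE-cadherin, read 2218 in the mutant and 3179 in the control, a log2 ratio of -0.52. All 3 of its measured probe sets were lower, from -1.10 to -0.43. The adhesion molecule gene Nectin1 was the 1 member past 1.5-fold, at 266 in the mutant and 136 in the control.

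The list of other tight junction genes was largely undetected or near control. Of 22 genes 20 were on the array and 12 were measured, 7 lower and 5 higher, with a median of -0.03 and 0 past 1.5-fold. The shares over all measured genes were 51.0% lower, 6.61% at least 1.5-fold lower and 4.37% at least 1.5-fold higher. Ocln, the tight junction protein occludin, lay under the floor on both arrays, at 59.2 in the mutant and 66.8 in the control. The widest measured members were Cldn3, a claudin of epithelia, at 0.50 with its other probe set at -0.57, Marveld2 (tricellulin) at -0.34 and the scaffold gene Magi3 at 0.25. Cldn15, another claudin gene, was above the floor in the control alone, at 74.6 in the mutant and 131 in the control, which leaves a bound of -0.67 on its log2 ratio. The 12 measured genes had higher ratios than Cldn5, and Cldn15 may lie as low or lower.

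Genes around Rap1 and the cerebral cavernous malformation (CCM) complex, with which Rasip1 works, went both ways. Of 20 genes 17 were measured, 9 lower and 8 higher, with a median of -0.11 and, by brightest probe set, 0 past 1.5-fold. Beside this, 51.0% of all measured genes read lower, 6.61% by at least 1.5-fold, and 4.37% were at least 1.5-fold higher. Arhgap29, whose protein Rasip1 recruits, had the highest ratio of the list. It read 3452 in the mutant and 2483 in the control, with both probe sets at 0.48. The Rap1 exchange factor genes Rapgef2 and Rapgef3 were both at -0.43, and all 4 probe sets of Rapgef3 were lower, from -0.79 to -0.10. Radil, another Rap1 effector that binds Rasip1, was at -0.29 and Krit1, a CCM complex gene, at -0.12. Heg1, the surface receptor of that complex, was above the floor in the control alone, at 79.9 in the mutant and 131 in the control.

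Among other endothelial surface genes 18 of 27 measured members read lower, with a median of -0.13, and 0 were 1.5-fold lower. Over all measured genes 51.0% read lower, 6.61% by at least 1.5-fold, and 4.37% were at least 1.5-fold higher. This list holds 7 of the 8 endothelial markers above. Unc5b, the receptor that Robo4 binds, read 2557 in the mutant and 3724 in the control, and its 2 probe sets were at -0.54 and -0.49. Mmrn2, which encodes multimerin-2, the ligand of Clec14a, read 4697 in the mutant and 5642 in the control, at -0.26, with its 4 probe sets from -0.26 to -0.01. Cdh13, a cadherin anchored by lipid, was the 1 member past 1.5-fold, at 809 in the mutant and 491 in the control, although its 3 probe sets ran from -0.32 to 0.72. By brightest probe set, Robo4 and Cldn5 had lower ratios than the measured genes of the 4 companion lists. Cldn15 and Heg1, both with a bound of -0.67, and Sele, with a bound of -0.25, were left out of this order. Their mutant signal lay under the floor, so each may lie lower than its bound. Further probe sets of companion genes reached lower than Robo4, among them those of Cd93, Vcam1 and Tmem204, Ptprb at -1.10 and Rapgef3 at -0.79.

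**Figure D3:**
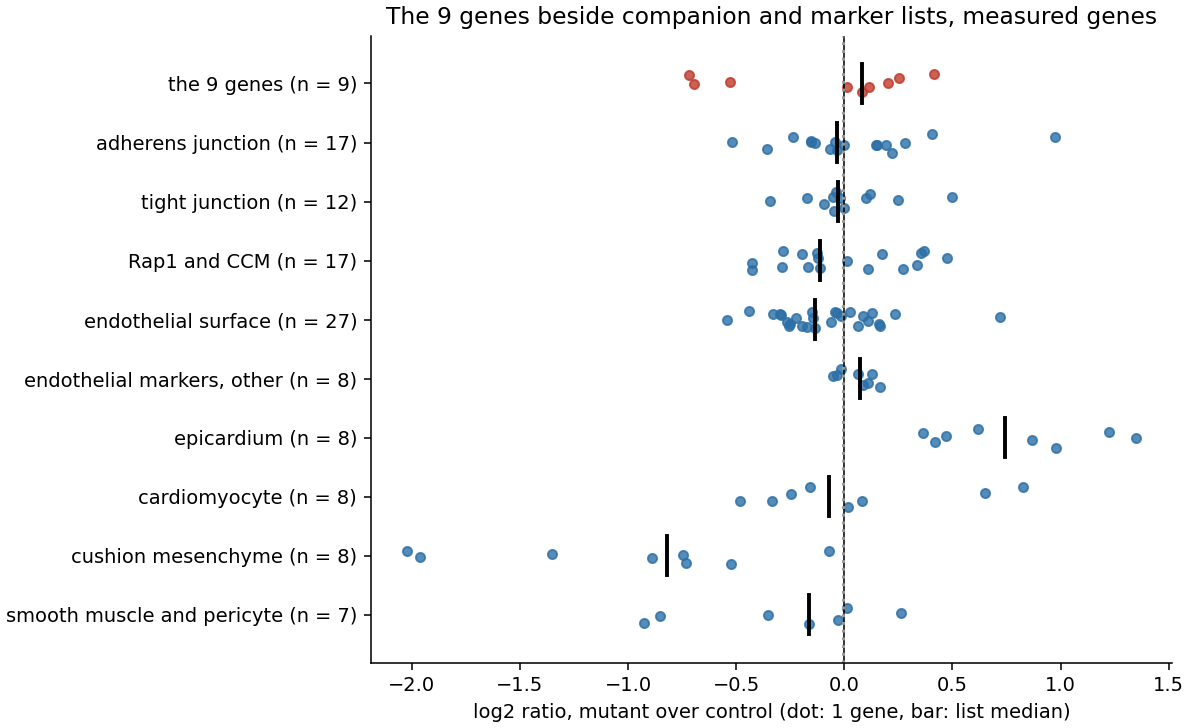
Each dot is 1 measured gene at its log2 ratio of mutant over control, each black bar is the median of its list, and n is the number of measured genes. The 9 genes (red) split into 3 near -0.53 to -0.72 and 6 from 0.01 to 0.41, the other endothelial markers stay between -0.05 and 0.16, epicardial markers lie to the right of 0 and cushion mesenchyme markers to the left.

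Markers of other cells in the heart moved in the same arrays. The counts below stand beside 51.0% of all measured genes lower in the mutant. At 1.5-fold, 6.61% of all measured genes were lower and 4.37% higher. All 8 cushion mesenchyme markers were lower in the mutant, with a median of -0.82 and a summed signal of 15635 in the mutant and 28383 in the control. Their brightest were Postn, Snai2 and Twist1, with Postn at 6431 in the mutant and 10686 in the control. Epicardial markers were higher in 8 of 8 measured, with a median of 0.74 and a summed signal of 9137 in the mutant and 5187 in the control. Cardiomyocyte markers were split 4 and 4 with a median of -0.07, but their summed signal was 13285 in the mutant and 10845 in the control. Of these, by brightest probe set, Myl7 and Tnni3 were at least 1.5-fold higher and 0 were 1.5-fold lower. Myl7 alone read 6753 in the mutant and 3811 in the control, so it weighs heavily in that sum. The lower 4 were Nppa at -0.48, Actn2 at -0.33, Tnnt2 at -0.24 and Myh6 at -0.16. The other measured probe set of Tnnt2 was at -0.78. Smooth muscle and pericyte markers had 5 of 7 lower with a median of -0.16. Of these 7, Cspg4 at -0.93 and Kcnj8 at -0.85 were at least 1.5-fold lower, and 0 were 1.5-fold higher. The part of these cells in the ratios of the 9 genes was not tested.

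Platelets also use Pecam1, Esam and Icam2, so markers of sorted-out blood cells bear on these 3 genes. Of 6 megakaryocyte and platelet markers 4 lay under the floor on both arrays, among them Itga2b, which encodes CD41, at 28.6 in the mutant and 41.1 in the control. Only Pf4 was measured, at 295 in the mutant and 214 in the control. Gp1bb was above the floor in the mutant alone, at 99.6 in the mutant and 58.3 in the control. Of 6 leukocyte markers 3 lay under the floor on both arrays, including Ptprc, which encodes CD45, at 21.1 in the mutant and 3.14 in the control. The other 3 differed between the arrays, with Cx3cr1 at 47.8 in the mutant and 226 in the control, Csf1r at 80.6 in the mutant and 144 in the control, and Cd68 at 162 in the mutant and 93.8 in the control. Erythroid markers were lower in 3 of 3 measured, beside 51.0% of all measured genes. Hbb-y read 6606 in the mutant and 9843 in the control.

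The direction of 8 of the 9 genes was the same under every setting tried that could read them, and Cdh5, at 0.01, was lower in 1 of 10. Some settings could not alter a ratio. Another floor leaves the ratio of a gene above it as it was, and so does the median over probe sets for a gene with 1 probe set. Unsuffixed probe sets likewise keep the ratio of a gene whose brightest probe set has no suffix. Cldn5 ranged from -0.77 to -0.64 and Clec14a from -0.60 to -0.52. Robo4 ranged from -0.79 to -0.63 where it was measured. With the floor at the 75th percentile its mutant signal fell under the floor of 522, and only a bound of -0.28 was left. Rasip1 ranged from 0.34 to 0.45.

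**Figure D4:**
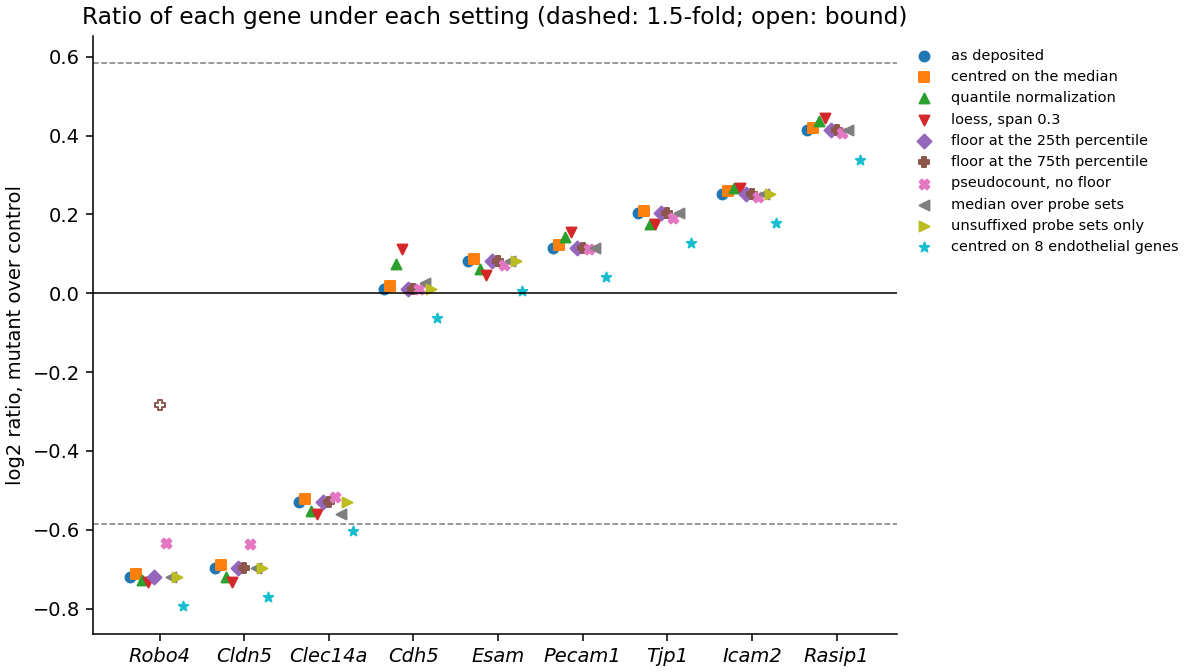
For each of the 9 genes, ordered by ratio, the points give the log2 ratio of mutant over control as deposited and under each alternative, with 1.5-fold as dashed lines and an open point for a bound. Robo4, Cldn5 and Clec14a stay below 0 under each setting, and Rasip1 stays between 0.34 and 0.45.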

How the data were processed

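RNA of sorted Tie2Cre lineage cells was labelled with biotin and hybridised to 1-colour Affymetrix arrays, 1 of mutant and 1 of control cells. The deposited values are linear intensities, 1 per probe set, made by the authors with MAS5, as the submitters' processing notes name it. That method subtracts mismatch signal, which makes dim ratios noisy, and scales each array by 1 factor: the mean without the lowest and highest 2% was 500.003 on both arrays. Its version and settings, and the genome build, were not given in the sources used here.

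Of 45101 probe sets, 64 were array controls and 34945 named 1 gene in the platform annotation; 932 named several and 9160 were not listed, and both kinds were left out. Entrez identifiers matched the RefSeq gene table for 34754, with 0 symbols updated. Signals were floored at each array's median and put on the log2 scale, and a gene took its brightest probe set by mean log2 signal. Ratios are mutant over control. With 1 array per genotype nothing was tested, and precision is limited by the number of arrays. The ratios as deposited and under median, quantile and loess scaling were tested on simulated data first, in python 3.11.15, pandas 2.3.3 and statsmodels 0.14.6. The other alternatives, the SD between probe sets, the list summaries and the motif search were not tested in this way.

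The text names all 9 genes with every probe set; from each of 4 companion lists the measured genes past 1.5-fold or, where there were none, the 3 with the widest ratios, and direct partners of the 9; and from marker lists up to 3 of the brightest genes. Markers of sorted-out blood cells and the genes between neighbours were named outside this rule, after their values were seen. So were Cldn15, Sele, Cd93, Vcam1, Tmem204, Tnni3, Nppa, Actn2, Myh6, Cspg4 and Kcnj8. The members and lists were chosen with earlier results of these data known. Alternatives were 3 scalings (median, quantile, loess with a span of 0.3), a lower and a higher floor (25th and 75th percentiles), a pseudocount equal to an array's median, the median over probe sets, unsuffixed probe sets, other folds and the mean of the 9. Centring on 8 endothelial genes was added after seeing the data.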

Additional observations from a re-analysis of the deposited data

How the results depend on the processing

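The number of genes lower in the mutant, 3 of 9, was 3 or 4 under every setting that measured all 9. It was 2 of 8 measured with the floor at the 75th percentile and 3 of 6 with unsuffixed probe sets only. The count past 1.5-fold, 2 genes, was 1 with the floor at the 75th percentile, since Robo4 was then a bound of -0.28. At that floor 2.93% of all measured genes were at least 1.5-fold lower, beside 6.61% as deposited. The count was 3 when ratios were centred on the 8 endothelial genes, where Clec14a passed at -0.60. With that centring 8.78% of all measured genes were at least 1.5-fold lower. The count was 0 at 2-fold (2.11% of all measured genes) and 4 past a log2 ratio of 0.32 (33.5%). The median log2 ratio of 0.08 turned to -0.26 with unsuffixed probe sets only, which leave out Pecam1, Tjp1 and Rasip1, all higher in the mutant. The mean over the 9 genes was -0.10, so the sign of a summary over these genes depends on how it is taken. Of the 78 alternative values of single genes, 77 moved by less than the SD between probe sets of 1 gene, and the other was the bound for Robo4. Many of the 77 could not move, since another floor or choice of probe sets often returns the deposited ratio unchanged. No replicate array was available, and 7 of the 9 genes rest on 1 probe set.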

Other observations

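Of the 9 genes, 2 pairs lie close together on a chromosome. Robo4 and Esam stand on chromosome 9 with 2 protein-coding genes, Robo3 and Msantd2, between them in the RefSeq gene table. Robo4 was at -0.72 and Esam at 0.08, so Robo4 minus Esam was -0.80. Msantd2 between them was at -0.13, with 572 in the mutant and 625 in the control, and Robo3, another roundabout receptor gene, lay under the floor on both arrays at 47.5 in the mutant and 29.4 in the control. Icam2 and Pecam1 stand on chromosome 11 with Ern1 and Tex2 between them. These 4 genes were all close to control or higher, with Icam2 at 0.25, Ern1 at 0.06, Tex2 at 0.02 and Pecam1 at 0.12. The neighbours were looked up after the ratios of the 9 genes were known.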
